A study of Mus musculus with 24 samples.

Results

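The 10 genes described here encode the main apolipoproteins made by mouse liver, namely Apoa1, Apoa2, Apoa4, Apoa5, Apob, Apoc1, Apoc2, Apoc3, Apoe and Apom. They were taken by symbol, through their GENCODE M21 identifiers, from a table of 22392 genes, and all 10 were among the 14040 genes that had a mean normalized read count of at least 10 and were tested.

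Apolipoproteins are the protein part of the particles that carry lipid in blood. Apob is the non-exchangeable scaffold of very low density lipoprotein (VLDL) and of the low density lipoprotein formed from it, and Apoa1 and Apoa2 are the structural proteins of high density lipoprotein (HDL). The small exchangeable apolipoproteins move between particles and set how fast triglyceride is cleared: Apoc2 is the cofactor of lipoprotein lipase, Apoa5 promotes lipolysis, Apoc3 and Apoc1 restrain lipolysis and uptake, and Apoe is the ligand by which remnant particles are taken up by liver receptors.

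RNA was sequenced from the livers of 24 CD2F1 mice, 8 in each of 3 groups. The control group (CT) was injected without tumour cells and carried no tumour. The C26 group carried a transplanted C26 tumour, a mouse colon carcinoma used as a model of cancer wasting (cachexia), and received no treatment. The C26-CHO group carried the same tumour and ate a diet with cholestyramine, which holds back bile acids in the intestine, at 2% by weight from day 1 to day 10 after tumour cells were given. No allele or transgene is named for any group, age and sex are not given in the labels used here, and tumour-free mice on cholestyramine were not analysed here, so an effect of the resin could be read only in mice with a tumour.

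Libraries held 19.91 M to 30.5 M reads, and CT was the shallowest group at a mean of 22.02 M (SD 1.10), followed by C26 at 22.8 M (SD 2.90) and C26-CHO at 25.79 M (SD 3.50). The first principal component of all tested genes held 71.9% of the variance and put C26-CHO 1 at -13.41, between CT (-83.15 to -75.36) and the other tumour-bearing livers (22.32 to 54.62). Log2 fold changes and ratios against CT in the C26-CHO group are also given without that mouse where they were called. Of 8 hepatocyte markers all 8 had reads in every group, and their summed level ran from 1385829 to 1651531 in CT, 1293949 to 1470517 in C26 and 1020700 to 1462342 in C26-CHO, where 1020700 is the lowest single library. That sum hides opposite changes among its members: mean Alb (albumin) was 1034282 in CT, 250837 in C26 and 292877 in C26-CHO, Ttr (transthyretin) was 86357, 15121 and 18336, Cps1 (urea cycle) was 71519, 28914 and 33673, and Fgb (fibrinogen) was 78770.2, 793099 and 709885. In the same order, means were 32913, 54837 and 50489 for Tat and 12190, 16025 and 15821 for Hnf4a. They were 8167, 8575 and 9003 for Asgr1 and 185363, 176299 and 169307 for Serpina1c. For Alb the log2 fold change in C26 against CT was -2.06 (limma adjusted p = 1.94e-13), against -1.74 for Apoa2. These are bulk livers, so fewer cells of a type and less RNA per cell cannot be told apart in any value below.

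Apolipoprotein mRNA took up less of the liver's reads in mice with a tumour. The 10 genes together held 3.90% ± 0.230 of reads in CT, 1.82% ± 0.0984 in C26 and 2.20% ± 0.265 in C26-CHO (SD, n = 8 each), and the lowest CT liver, at 3.55%, lay above the highest tumour-bearing liver, at 2.70%. The members did not move as a block. In C26 against CT, Apoa2, Apoe, Apoc1, Apoc3 and Apoa1 fell and Apoc2 and Apom rose by limma, an adjusted p under 0.05 being the call, although Apom was at -0.023 on the log2 scale when libraries were scaled to their total reads. Apoa4, Apoa5 and Apob did not pass the test. Over all genes 66.3% were called in this comparison (33.3% higher and 32.9% lower), so 7 of 10 members is close to the background. The median log2 fold change of the 10 was -0.16, against 0.01 over all genes.

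Groups of 8 that do not overlap are a stricter reading of the same values. C26 and CT did not overlap for 6 of the 10 genes, where 35% of all tested genes had no overlap: Apoa2, Apoe, Apoc1 and Apoc3 were lower in all 8 C26 livers than in any CT liver, and Apoc2 and Apom were higher in all 8. As a percent of each library's reads, the C26 and CT groups of Apoc2 and Apom overlapped and those of Apoa1 did not, so 5 of the 10 had no overlap, all lower, where 44% of all tested genes had none. Scaling to total reads moved the median of all genes by -0.28 in C26 against CT and by -0.25 in C26-CHO against CT, and it turned the split of all called genes in C26 against CT from 4681 higher and 4624 lower into 2337 higher and 8196 lower. On that scale 1 apolipoprotein (Apoc2) was called higher and 6 lower in C26 against CT.

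Cholestyramine in mice with a tumour left no member past the test. In C26-CHO against C26, limma called 0 of the 10 genes, 5 had an unadjusted p under 0.05 (Apoa5, Apoe, Apoa2, Apoc2 and Apoc1), and edgeR on the recovered reads also called 0 and had 5 under that unadjusted threshold. Over all genes 0.705% were called (0.556% higher and 0.15% lower) and 13% had an unadjusted p under 0.05. No member had groups that did not overlap, where 0.135% of all genes did. The median log2 fold change of the members was 0.10, against 0.00 over all genes, and 3 members had an unadjusted p under 0.05 without C26-CHO 1.

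Against CT, the cholestyramine-fed livers had 4 members called lower (Apoa2, Apoe, Apoc1 and Apoc3) and 4 called higher (Apoa4, Apoc2, Apom and Apob). Of all genes tested 62.2% were called in this comparison, with 31.3% of all genes higher and 30.9% lower. Apob was at -0.33 after quantile normalization and -0.041 with scaling to total reads, so its direction depended on the scaling. The split was 3 higher and 5 lower after quantile normalization, where 4257 of all 14040 genes were higher and 4474 lower. With scaling to total reads it was 1 higher and 5 lower, where 2222 of all genes were higher and 7954 lower. Groups did not overlap for 5 of the 10 genes, against 25.2% of all genes. Without C26-CHO 1 the log2 fold changes were -1.47 for Apoa2, -1.11 for Apoc1, -1.03 for Apoe, -1.17 for Apoc3, 0.83 for Apoa4, 0.73 for Apoc2, 0.37 for Apom and 0.31 for Apob, all called, and Apoa5 was called in addition. This comparison uses the same CT livers as C26 against CT and the same C26-CHO livers as C26-CHO against C26.

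**Figure D1:**
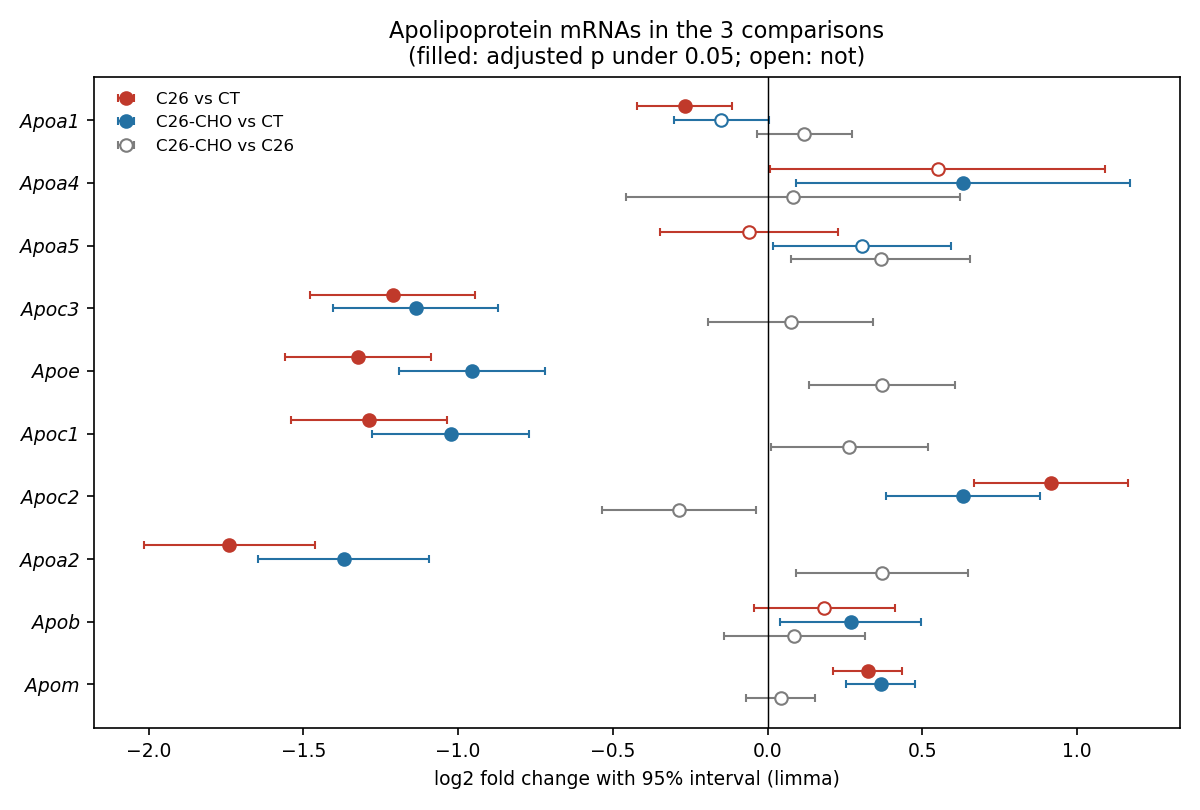
Log2 fold change (x axis) of each apolipoprotein mRNA (rows) in the 3 comparisons, with the 95% interval of the limma fit, filled where the adjusted p was under 0.05. Apoa2, Apoe, Apoc1 and Apoc3 lie between -1.74 and -1.21 in C26 against CT and Apoc2 at 0.92, while Apom (0.32) and Apob (0.18) change sign under another scaling of the libraries and every grey point (C26-CHO against C26) is open.

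The proximal promoters of 3 members are shown because these genes carry the contrast: Apoe and Apoa2 fell together, and Apoc2 rose at the other end of the gene cluster that holds Apoe. Each is the 250 bases before the RefSeq start on GRCm38.p6, written 5′ to 3′ on the gene's strand, at chr7:19699189-19699438 (minus strand) for Apoe, chr1:171224804-171225053 (plus strand) for Apoa2 and chr7:19677942-19678191 (minus strand) for Apoc2. A RefSeq window was matched for 8 of the 10 members, all but Apoc1 and Apoc3. The 5′ part of the Apoc2 window, from position 19678083 on, lies within the same-strand neighbour Apoc4. The same-strand gene model Gm44805 (19671584 to 19681423) spans the whole Apoc2 window.
Apoe: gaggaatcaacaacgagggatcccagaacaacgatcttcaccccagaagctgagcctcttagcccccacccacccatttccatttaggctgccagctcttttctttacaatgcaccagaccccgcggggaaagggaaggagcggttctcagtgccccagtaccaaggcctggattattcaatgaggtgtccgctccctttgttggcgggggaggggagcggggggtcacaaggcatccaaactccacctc
Apoa2: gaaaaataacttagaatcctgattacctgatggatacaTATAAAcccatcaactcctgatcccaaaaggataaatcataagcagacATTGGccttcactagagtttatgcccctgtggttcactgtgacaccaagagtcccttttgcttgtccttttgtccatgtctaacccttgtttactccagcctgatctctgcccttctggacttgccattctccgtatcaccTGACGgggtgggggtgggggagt
Apoc2: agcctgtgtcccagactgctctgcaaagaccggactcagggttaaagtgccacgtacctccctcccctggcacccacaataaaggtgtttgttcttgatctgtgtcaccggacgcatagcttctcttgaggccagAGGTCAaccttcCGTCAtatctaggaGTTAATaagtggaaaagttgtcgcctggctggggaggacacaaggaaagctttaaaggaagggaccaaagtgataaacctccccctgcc
Capitals mark matches, on either strand, to 6 short motifs, and no capital stretches overlap. The TATA box was searched as TATAAA and was held by 12.4% of 32851 windows of the same length. The reverse CCAAT box appears in the Apoa2 window as ATTGG and was held by 33.8% of windows. The nuclear receptor half-site AGGTCA was held by 14%. The half-site of the liver factor HNF1, searched as GTTAAT, was held by 6.43%. The STAT site was TTCNNNGAA, held by 7.02%. The core of the CREB site was TGACG, held by 17.8%, and reads as CGTCA on the other strand. The Apoc2 window holds the nuclear receptor half-site, the CREB core and the HNF1 half-site, whose bases nearest the start lie 110, 99 and 84 bases before it. In the Apoa2 window the base nearest the RefSeq start lies 207 bases before it for TATAAA, 160 for ATTGG and 19 for TGACG. That RefSeq start lies 28 bases before the start of the GENCODE principal transcript. All are sequence matches, and whether any is a working site was not tested. The Apoe window holds none of the 6.

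Among the HDL proteins, Apoa2 had the largest fall of the 10 genes on the deposited scale in both comparisons with CT. Apoa2 (chromosome 1, 171225054 to 171226379, plus strand, GRCm38) encodes the second structural protein of HDL. Its normalized read counts had a lowest, median and highest value of 87356, 111058 and 136888 in CT, 24139, 35299.6 and 39136 in C26, and 34598, 39958 and 69988 in C26-CHO. All 16 tumour-bearing livers lay below the lowest CT liver. In log2 fold change this was -1.74 (SE 0.134, limma adjusted p = 2.00e-11) in C26 and -1.37 (adjusted p = 2.24e-09) in C26-CHO, both against CT. C26-CHO 1 had the highest Apoa2 value of its group, and without it the change against CT was -1.47.

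Apoa1, the main protein of HDL, is at chromosome 9, 46228580 to 46230466, on the plus strand. Its CT values were 122592, 141760.0 and 155716 (lowest, median, highest), its C26 values 102471, 116907 and 129991, and its C26-CHO values 112346, 123886 and 146511. The ranges overlapped, with 6 of 8 C26 livers below every CT liver. Apoa1 fell in C26 against CT by 0.27 on the log2 scale (SE 0.0741, limma adjusted p = 0.00254), where Apoa2 fell by 1.74. It was at -0.15 in C26-CHO against CT (adjusted p = 0.0816), and -0.12 without C26-CHO 1. After quantile normalization, which gives every library the same distribution, these became -1.30 and -1.21, both called, so for this highly abundant mRNA the size of the fall depends on the scaling.

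Apom encodes the HDL protein that carries sphingosine 1-phosphate and lies at chromosome 17, 35128997 to 35132050, on the minus strand. It had the smallest spread between mice in CT, with a coefficient of variation of 4.93%. Values were 2288, 2441 and 2682 in CT, 2721, 3109 and 3465 in C26 and 2924, 3098 and 3583 in C26-CHO. Every tumour-bearing liver lay above every CT liver on the deposited scale. Apom was at a log2 fold change of 0.32 (SE 0.0543, limma adjusted p = 1.03e-05) in C26 and 0.36 (adjusted p = 2.16e-06) in C26-CHO, but with scaling to total reads it was -0.023 and 0.055 and neither was called.

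Apob, the scaffold of VLDL, lies at chromosome 12, 7977648 to 8016835, on the plus strand, and its principal transcript of 13934 bases has 29 exons. Values were 78626, 103630.1 and 120229 in CT, 97514, 110532 and 137540.1 in C26, and 96675, 121521 and 148105 in C26-CHO. The 3 groups overlapped, and 3 C26 and 4 C26-CHO livers lay above every CT liver. The log2 fold change against CT was 0.18 in C26 (SE 0.111, limma adjusted p = 0.149) and 0.27 in C26-CHO (adjusted p = 0.0374). Besides the scalings that turned its sign (-0.39 in C26, adjusted p = 0.0316, and -0.33 in C26-CHO after quantile normalization), leaving out any 1 of 7 mice (CT 1, CT 2, CT 4 and C26-CHO 3, 5, 6 and 8) ended the C26-CHO call, at adjusted p up to 0.0884. Apob mRNA levels therefore gave no difference from CT that held under all settings run.

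Apoe, the remnant ligand, fell by more than 1 log2 unit in C26. The gene lies at chromosome 7, 19696109 to 19699188, on the minus strand. Its values were 279640.1, 320206 and 410977 in CT, 107849, 130837 and 154933 in C26, and 141155, 156765 and 243422 in C26-CHO. CT livers lay above all tumour-bearing livers, and 5 of 8 C26-CHO livers lay above the highest C26 liver. The log2 fold change was -1.32 (SE 0.115, limma adjusted p = 1.76e-10) in C26 and -0.95 (adjusted p = 7.84e-08) in C26-CHO against CT. Between the tumour-bearing groups it was 0.37 (95% interval 0.13 to 0.61, adjusted p = 0.129), or 0.29 without C26-CHO 1, which had the highest Apoe value of its group. Quantile normalization gave -2.27 in C26 and -1.96 in C26-CHO.

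Apoc1, an inhibitor of lipoprotein uptake and of lipolysis, is the neighbour of Apoe at chromosome 7, 19689481 to 19692660. Values were 26837, 31626 and 43476 in CT, 9885, 14254 and 16528 in C26, and 12821, 15656 and 24834 in C26-CHO. As for Apoe, no tumour-bearing liver reached the lowest CT liver. Apoc1 fell by 1.29 on the log2 scale in C26 (SE 0.123, limma adjusted p = 1.01e-09) and by 1.02 in C26-CHO (adjusted p = 7.49e-08).

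Apoc2, the activator of lipoprotein lipase, moved the other way within the same gene cluster. The gene lies at chromosome 7, 19671579 to 19677941, on the minus strand, and shares its position with the same-strand gene model Gm44805, so its counts are uncertain as those of a single gene. Values were 1902, 2289.7 and 3064 in CT, 3189, 4532 and 5490 in C26, and 2256, 3911 and 4516 in C26-CHO. All 8 C26 livers and 7 of 8 C26-CHO livers lay above every CT liver, and C26-CHO 1 was the lowest of its group. Apoc2 rose by 0.92 on the log2 scale in C26 (SE 0.121, limma adjusted p = 2.72e-07) and by 0.63 in C26-CHO (adjusted p = 6.82e-05). The difference between C26-CHO and C26 was -0.29 (95% interval -0.53 to -0.04, adjusted p = 0.295), and -0.19 without C26-CHO 1. With scaling to total reads the rise was 0.57 in C26 and 0.32 in C26-CHO, both called.

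Apoc3, the inhibitor of lipoprotein lipase and of remnant uptake, and Apoa5, which promotes lipolysis, lie in the cluster around Apoa1. Apoc3 (chromosome 9, 46232933 to 46235636, minus strand) had values of 21332, 25583 and 32438 in CT, 7667, 12021 and 13728 in C26, and 8786, 11996 and 16494 in C26-CHO. All tumour-bearing livers lay below every CT liver. Apoc3 fell by 1.21 on the log2 scale in C26 (SE 0.129, limma adjusted p = 7.21e-09) and by 1.14 in C26-CHO (adjusted p = 2.82e-08). The difference between the tumour-bearing groups was 0.07, with a 95% interval of -0.19 to 0.34.

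Apoa5 (chromosome 9, 46268633 to 46271919, plus strand) had values of 23211, 28605 and 35594 in CT, 21313, 26493 and 33387 in C26, and 21713, 36568 and 52943 in C26-CHO. The C26-CHO group was the most spread, and 6 of its 8 livers lay above the highest C26 liver. The log2 fold change was -0.06 in C26 against CT (SE 0.140, limma adjusted p = 0.718), but with scaling to total reads it was -0.41 and called lower (limma adjusted p = 0.00714). It was 0.36 in C26-CHO against C26 (95% interval 0.08 to 0.65, adjusted p = 0.238), the latter being 0.46, at an adjusted p of 0.104, once C26-CHO 1 was left out. In C26-CHO against CT it was 0.30 (adjusted p = 0.0616), and leaving out C26-CHO 1 gave 0.40 (adjusted p = 0.00646), but -0.0058 with scaling to total reads. The antisense gene Gm47544 overlaps Apoa5, and whether counting used strand is not given in the sources used here.

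Apoa4, an apolipoprotein of triglyceride-rich particles that is made mostly in intestine in many species and also in mouse liver, varied most between mice. The gene lies at chromosome 9, 46240696 to 46243459, on the plus strand, and the antisense models Gm47528 and Gm10680 overlap it, so its counts share the same uncertainty. Values were 2428, 2817 and 4588 in CT, 2349, 4723 and 5999.9 in C26, and 1820, 4028 and 9460 in C26-CHO. In C26-CHO the coefficient of variation was 54.0%, with both the lowest liver of all 24 (C26-CHO 1) and the highest (C26-CHO 8). The log2 fold change against CT was 0.55 in C26 (SE 0.263, limma adjusted p = 0.0683) and 0.63 in C26-CHO (adjusted p = 0.0396). Without C26-CHO 1 both were called, at 0.55 (adjusted p = 0.0313) and 0.83 (adjusted p = 0.00279), and C26 was also called without CT 2, CT 4 or C26 7. The C26-CHO call was lost when any 1 of 9 other mice (CT 1, 3, 5, 6, 7 and 8 and C26-CHO 2, 5 and 8) was left out, at adjusted p up to 0.1004. With scaling to total reads Apoa4 was at 0.32 in C26-CHO (limma adjusted p = 0.259) and 0.20 in C26 (adjusted p = 0.478), and neither was called. In fits of the compared groups alone C26-CHO was not called (limma adjusted p = 0.0602) and C26 was (adjusted p = 0.00858). After quantile normalization both were called, at 0.82 and 0.79.

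Markers of the gut were read beside Apoa4. Of 8 intestinal epithelium markers 5 had values, Cdx2 was at 0 in all CT livers, and the summed level (1544 to 2335 in CT, 557 to 1055 in C26, 790 to 1441 in C26-CHO) came mostly from Fabp2, and every tumour-bearing liver lay below every CT liver. Markers of other liver cells also differed in level: the summed macrophage markers ran from 3755 to 5357 in CT, 5526 to 6902 in C26 and 5119 to 9150 in C26-CHO, with all 8 present. The summed cholangiocyte markers ran from 322 to 495, 5526 to 11448 and 2204 to 9518, most of it Spp1. In the same order, means were 38.01, 616 and 402 for Sox9 and 14.3, 50.5 and 46.3 for Muc1. They were 18.7, 13.01 and 17.8 for Krt19, 10.7, 9.19 and 12.4 for Krt7 and 18.3, 18.03 and 19.5 for Epcam. For Cldn7 they were 6.92, 5.16 and 6.55, and for Cftr 0.946, 1.71 and 0.641. Summed neutrophil markers ran from 8.87 to 26.5 in CT, 122 to 567 in C26 and 83.7 to 298 in C26-CHO, and summed markers of T, NK and B cells from 35.4 to 129, 18.4 to 40.4 and 19.01 to 103. Sinusoidal endothelial markers summed to 3976 to 5628, 5514 to 7560.3 and 4729 to 7913, and stellate cell and fibroblast markers to 4709 to 6195, 5716 to 8349 and 4648 to 9454. All 8 markers of each of these 4 lists had reads in every group. The stellate sum hides opposite changes, with means in CT, C26 and C26-CHO of 1964, 3980 and 3890 for Dcn and 1572, 964 and 1034 for Reln. Macrophages make Apoe as well as hepatocytes. The part of these markers in the apolipoprotein values was not tested.

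**Figure D2:**
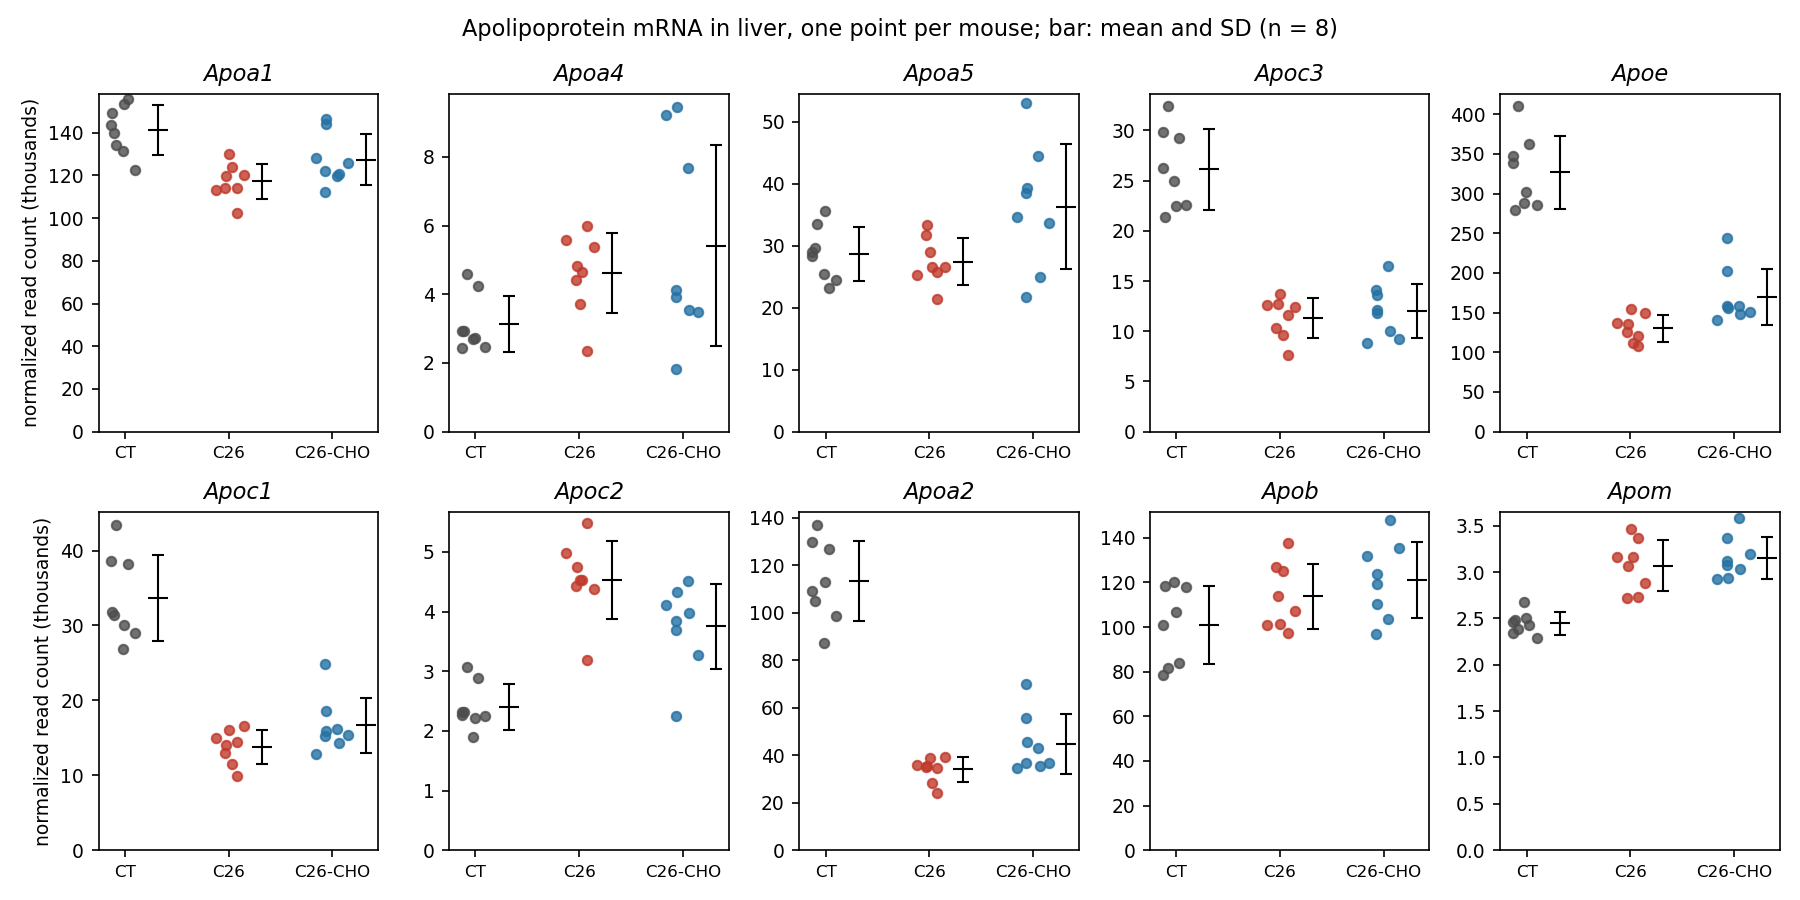
Normalized read count, divided by 1000 (y axis, from 0), of each apolipoprotein mRNA in every liver of the 3 groups (x axis), with the mean and SD of 8 mice beside each group. The lowest CT values of Apoa2 (87356), Apoe (279640.1), Apoc1 (26837) and Apoc3 (21332) lie above all tumour-bearing livers.

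The order of abundance among the members changed, as read from normalized read counts per kilobase of principal transcript. In CT, Apoe (mean 231978 per kb) and Apoa2 (230395) led with overlapping ranges, and Apoa1 came next at 136504 with no overlap. In C26, Apoa1 led at 113233, above Apoe at 92557 and Apoa2 at 69106, with the ranges of neighbours in that order overlapping. In C26-CHO, Apoa1 (123137) and Apoe (120598) were not separated beyond their ranges, nor were Apoe and Apoa2 (90925). Apoc1 and Apoc3 followed in all 3 groups (63346 and 49686 per kb in CT), with overlapping ranges within each group. Apoa5 and Apob came next, at 11385 and 7248 per kb in CT. The least abundant per kb were Apoc2 (3304 in CT, 6233 in C26 and 5159 in C26-CHO), Apom (2415, 3029 and 3113) and Apoa4 (1723, 2541 and 2979).

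Because 7 of these genes, with Apoc4, sit in clusters, neighbours could be compared inside each library, where a single scaling factor per library cancels. Quantile normalization is not such a factor, and the ratios after it, an alternative chosen after the data were seen, are given beside the results it changed. The cluster on chromosome 9 spans 43.34 kb with Apoa1, Apoc3, Apoa4 and Apoa5, and the cluster on chromosome 7 spans 27.61 kb with Apoc2, Apoc4, Apoc1 and Apoe, all on the minus strand. Apoc4, whose end is 141 bases from Apoc2, was at -0.65 in C26 against CT (limma adjusted p = 3.35e-05), against 0.92 for Apoc2. The gene model Gm44805 also overlaps most of Apoc4, so the counts of Apoc4 are uncertain in the same way as those of Apoc2. Within 27.61 kb 3 genes fell and 1 rose on the deposited scale, of which Apoc2 and Apoc4 carry that uncertainty, and none of the 4 changed sign with scaling to total reads or after quantile normalization.

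**Figure D3:**
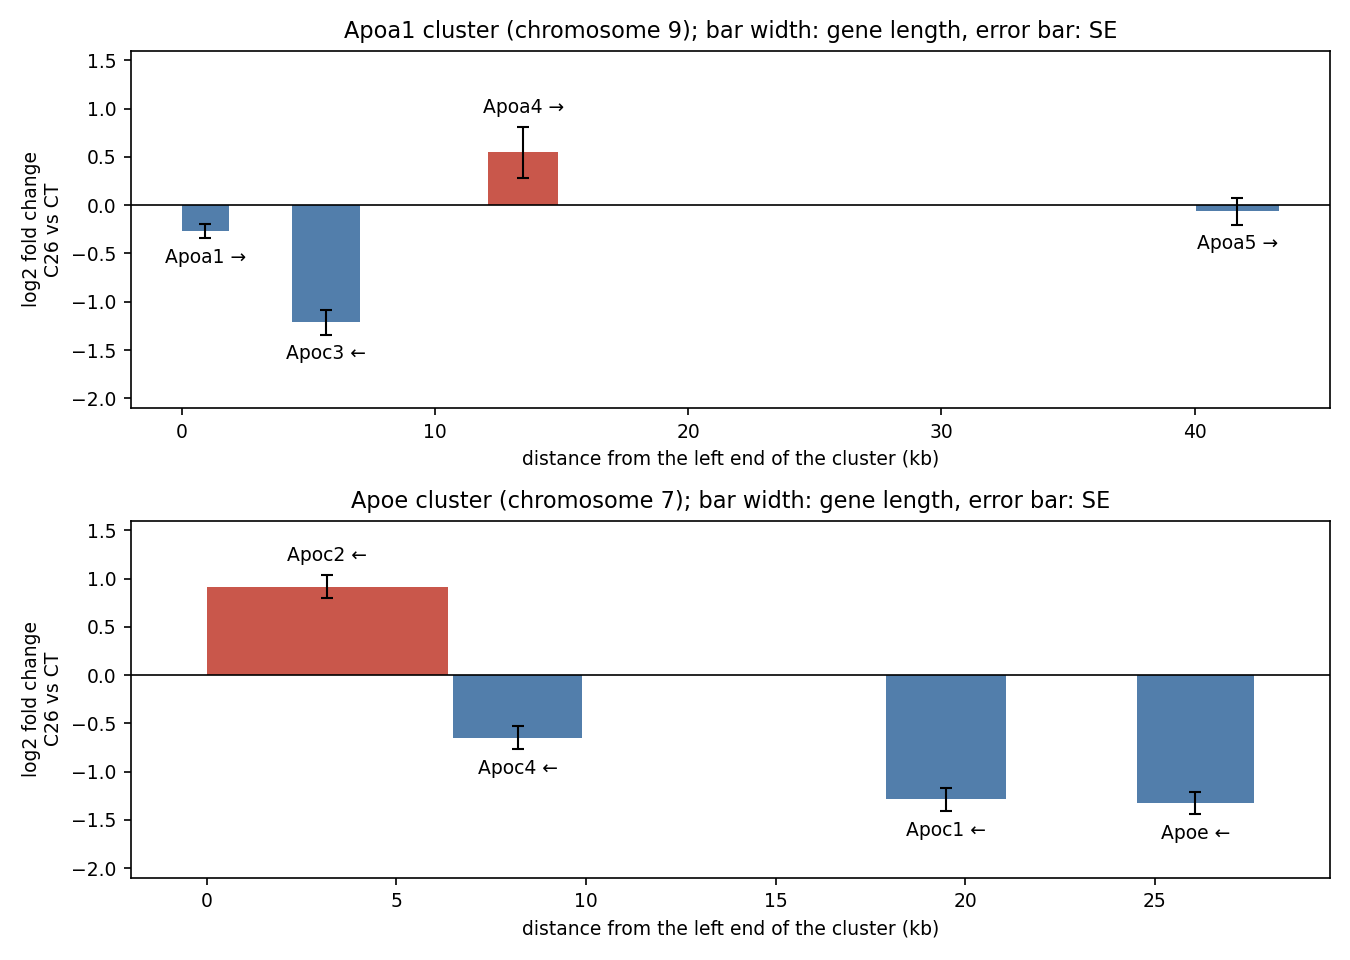
Log2 fold change in C26 against CT (y axis) along the Apoa1 cluster and the Apoe cluster (x axis, distance in kb from the left end), where bar width is gene length, error bars are the SE and arrows give the strand. In the Apoe cluster Apoc2 rose by 0.92 while Apoe fell by 1.32 and Apoc1 by 1.29.

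The Apoc2 to Apoe ratio separated all 3 groups. Its log2 value, lowest, mean and highest, was -7.24, -7.09 and -6.92 in CT, -5.10, -4.85 and -4.46 in C26, and -6.75, -5.50 and -5.10 in C26-CHO. No liver of any group lay within the range of another group, although the highest C26-CHO liver (C26-CHO 5, -5.103) lay just under the lowest C26 liver (C26 4, -5.096). The ratio was higher by 2.24 in C26 and by 1.58 in C26-CHO than in CT, and in C26-CHO it fell by 0.66 from C26. Each difference had an exact two-sided permutation p of 0.000155, the smallest that 8 against 8 can give, and 0.000466 after Benjamini-Hochberg adjustment over 15 comparisons of ratios. Without C26-CHO 1 the C26-CHO to CT difference was 1.76 (exact permutation adjusted p = 0.000583) and the C26-CHO to C26 difference was -0.48 (exact permutation p = 0.000932, adjusted 0.00280), and over all single mice left out its adjusted p reached 0.00699. The Apoc1 to Apoe ratio showed no such separation: it differed by 0.04 in C26 against CT (exact permutation adjusted p = 0.588) and by -0.11 in C26-CHO against C26 (adjusted p = 0.0660, but 0.00140 without C26 7). After quantile normalization Apoc2 to Apoe differed by 3.39 in C26 and 2.73 in C26-CHO against CT and by -0.66 between the tumour-bearing groups, and Apoc1 to Apoe was higher than in CT by 1.02 in C26 and 0.90 in C26-CHO (exact permutation adjusted p = 0.000333 for both), so whether Apoc1 fell as much as Apoe depends on the scaling.

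In the Apoa1 cluster, Apoc3 fell more than Apoa1 on the deposited scale but not after quantile normalization, where the ratio differed by 0.19 in C26 and 0.093 in C26-CHO against CT (exact permutation adjusted p = 0.389 and 0.685). As deposited, the Apoc3 to Apoa1 log2 ratio averaged -2.45 ± 0.231 in CT, -3.39 ± 0.218 in C26 and -3.43 ± 0.354 in C26-CHO (SD, n = 8 each), with exact permutation adjusted p = 0.000466 for both comparisons with CT (-1.05 in C26-CHO without C26-CHO 1) and a difference of -0.04 between the tumour-bearing groups (adjusted p = 0.818). The Apoa4 to Apoa1 ratio was higher than in CT by 0.82 in C26 (exact permutation adjusted p = 0.00466) and by 0.78 in C26-CHO (adjusted p = 0.0370). The latter call was lost when any 1 of 10 mice (CT 1, 3, 5, 6, 7 and 8 and C26-CHO 2, 4, 5 and 8) was left out, at adjusted p up to 0.0661, and without C26-CHO 1 the difference was 0.95 (adjusted p = 0.00408). The Apoa5 to Apoa1 ratio was 0.45 higher in C26-CHO than in CT (exact permutation adjusted p = 0.0167), or 0.53 without C26-CHO 1 (adjusted p = 0.00400), while differences of 0.21 in C26 against CT (adjusted p = 0.0963) and 0.25 in C26-CHO against C26 (adjusted p = 0.144) did not pass. The first of these passed without CT 2 (0.0438) or C26 1 (0.0391), and the second without C26-CHO 1 (0.04999). After quantile normalization Apoa4 to Apoa1 was higher by 2.09 in C26 and 2.03 in C26-CHO, and Apoa5 to Apoa1 by 1.19 and 1.44, each against CT and each called (exact permutation adjusted p up to 0.000583).

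**Figure D4:**
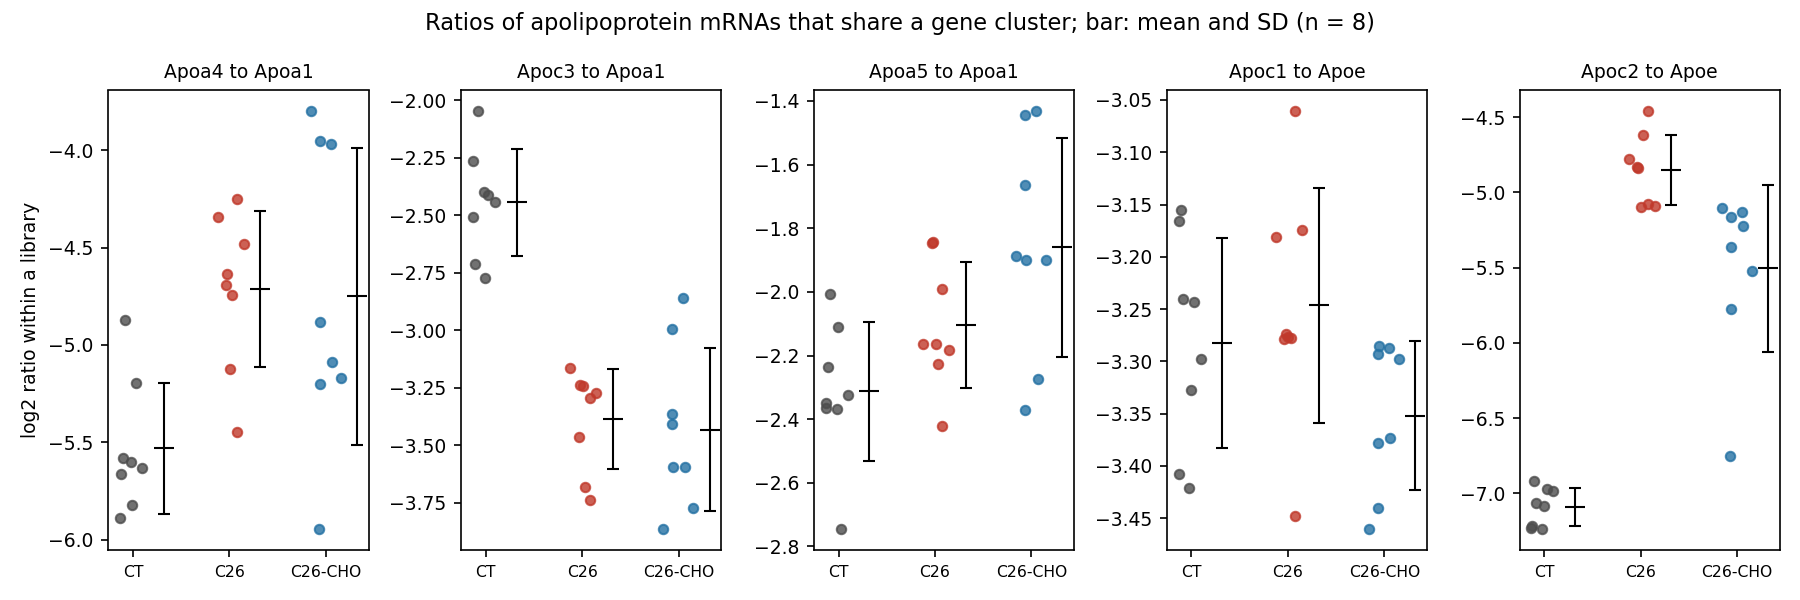
Log2 ratio of pairs of apolipoprotein mRNAs within each library (y axis) in the 3 groups (x axis), 1 point per mouse with the mean and SD of 8 mice. For Apoc2 to Apoe the groups form 3 separate bands, around -7.09 in CT, -5.50 in C26-CHO and -4.85 in C26, and C26-CHO 1 lies apart from its group at -6.75.

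Within groups, Apoe and Apoc1 rose and fell together from mouse to mouse. Pearson r of their log2 values was 0.91 in CT, 0.91 in C26 and 0.97 in C26-CHO (Spearman rho 0.81, 0.90 and 0.93; n = 8 each), with exact permutation adjusted p of 0.00539, 0.00539 and 0.00409 for r and 0.0817, 0.0342 and 0.0335 for rho over 15 relations between neighbours. Without the 2 mice farthest from the median Apoe value r was 0.92, 0.88 and 0.93. On these 6 mice the exact permutation adjusted p was 0.0764, 0.0833 and 0.0764, so none passed. Apoc1 and Apoc2 gave r of 0.88 in CT (rho 0.86, exact permutation adjusted p = 0.00539 for r and 0.0536 for rho). Without the 2 farthest mice their r in CT was 0.97 (exact permutation adjusted p = 0.0764). In C26 their r was 0.68 (rho 0.19, exact permutation adjusted p = 0.141 and 0.767) and in C26-CHO -0.78 (rho -0.33, adjusted p = 0.141 and 0.713). Without the 2 farthest mice r was -0.15 in C26 and 0.00 in C26-CHO, so the values of both groups rest on those mice. None of the other relations tested in the chromosome 9 cluster (Apoa1 with Apoc3, Apoc3 with Apoa4, Apoa4 with Apoa5) had an adjusted p under 0.05 in any group.

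Some relations between genes of different clusters were picked after their values were seen, and their exact permutation p was adjusted over 24 relations. Apoe and Apoa2 gave r of 0.86, 0.90 and 0.96 in CT, C26 and C26-CHO (rho 0.86, 0.98 and 0.93; permutation adjusted p for r 0.0168, 0.00179 and 0.00516, for rho 0.0286, 0.00952 and 0.0179). Without the 2 farthest mice r was 0.86, 0.90 and 0.69 (permutation adjusted p = 0.104, 0.0333 and 0.297). Apoa4 and Apoc2 gave r of 0.87, 0.92 and 0.86 (rho 0.64, 0.74 and 0.86). Permutation adjusted p was 0.0324, 0.0155 and 0.00625 for r and 0.192, 0.10 and 0.0286 for rho. Without the 2 farthest mice r was -0.031 in CT, 0.38 in C26 and 0.92 in C26-CHO, so in CT and C26 the relation rests on 2 mice. The C26-CHO value then had a permutation adjusted p of 0.0762. Apob ran against Apoe, with r of -0.91, -0.66 and -0.67 (rho -0.86, -0.52 and -0.86). Permutation adjusted p was 0.00604, 0.114 and 0.113 for r and 0.0286, 0.337 and 0.0286 for rho. Without the 2 farthest mice r was -0.96, -0.47 and -0.29 (permutation adjusted p = 0.0556, 0.686 and 0.777). The relation kept its sign in each group. Its r was smaller in size in C26 and C26-CHO, but rho was -0.86 in both CT and C26-CHO. A difference between groups was not tested.

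**Figure D5:**
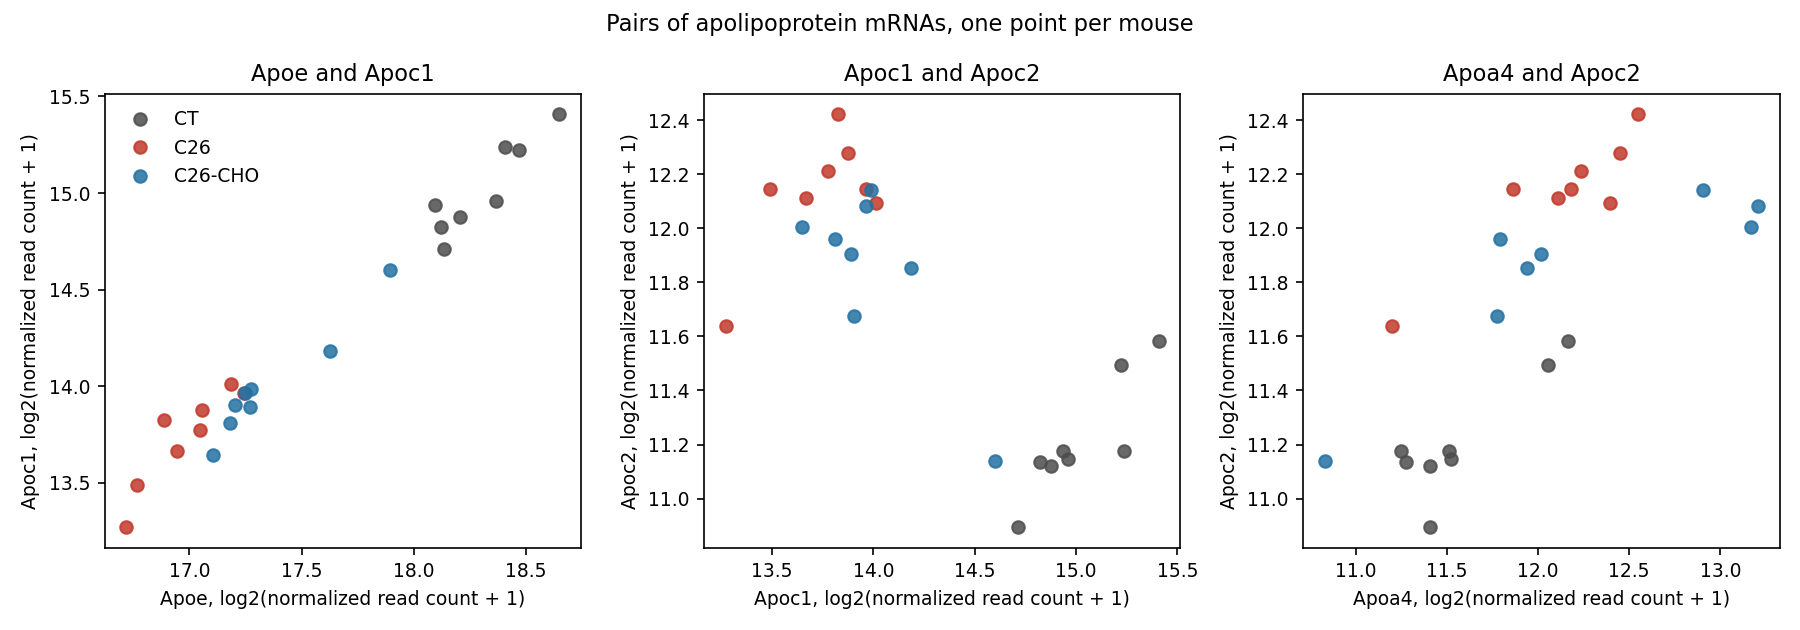
Log2 of the normalized read count plus 1 of pairs of apolipoprotein mRNAs (x and y axes), 1 point per mouse, coloured by group. Apoe and Apoc1 lie along a line in each group (r of 0.91, 0.91 and 0.97), whereas Apoc1 and Apoc2 run together in CT (0.88) and the C26-CHO value of -0.78 rests on 2 mice.

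A measure of each library moved with the same genes. The mean log2 level of 5455 genes with over 5 kb of exon minus that of 1042 genes with under 1 kb, an index chosen after the data were seen, ran from 1.56 to 1.92 in CT, 1.79 to 2.32 in C26 and 1.65 to 2.08 in C26-CHO. In C26-CHO its r was -0.97 with Apoc1, -0.97 with Apoa2 and -0.94 with Apoe (rho -0.98 for each; exact permutation adjusted p over 30 relations 0.00112, 0.00112 and 0.00124 for r and 0.00397 for each rho), and -0.94, -0.89 and -0.94 without the 2 farthest mice. For Apoc1, Apoa2 and Apoe in the same order, r was -0.94, -0.88 and -0.77 in C26 (rho -0.81, -0.69 and -0.62; exact permutation adjusted p 0.01004, 0.0233 and 0.0788 for r and 0.109, 0.260 and 0.283 for rho). In CT it was -0.64, -0.54 and -0.42 (rho -0.62, -0.60 and -0.38; exact permutation adjusted p 0.204, 0.302 and 0.400 for r and 0.283, 0.283 and 0.568 for rho), so none passed there. Without the 2 farthest mice r was -0.74, -0.36 and -0.67 in C26 and -0.30, -0.65 and -0.47 in CT, and none of these had an adjusted p under 0.05. In C26-CHO the exact permutation adjusted p of r without the 2 farthest mice was 0.0903 for each gene, so none passed there either. Apoc3 and Apob also had an r with the index that passed in C26, at -0.92 and 0.91 (exact permutation adjusted p = 0.0233 and 0.0174). Their rho there was -0.62 and 0.69 (adjusted p = 0.283 and 0.260). In C26-CHO their r was -0.77 and 0.79 (adjusted p = 0.0649 for both), and in CT -0.50 and 0.55 (0.307 and 0.302). No r of the remaining members passed. With the index as a covariate the C26 to CT log2 fold change was -1.39 for Apoa2, -1.08 for Apoe, -0.94 for Apoc1, -0.89 for Apoc3 and 0.98 for Apoc2, and these 5 were still called by limma. For Apob the log2 fold change in C26-CHO against CT became 0.09 and was no longer called (limma adjusted p = 0.437). Long transcripts such as Apob and short ones such as Apoa2 are the kinds of mRNA the index contrasts, and its part in their covariation was not tested beyond this covariate.

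The genes most like each member were taken from 10479 candidates by Pearson r of log2 values, centred within groups, over 24 libraries, as a description, since all genes of a library share its depth and RNA quality. Apoe was nearest to Tmbim6 (0.97) and Aldh2 (0.96), and Apoa2 to Aldh2 (0.94) and Ndufb10 (0.93). Apoc1 was nearest to Fxyd1 (0.94) and Ndufb4 (0.93), and Apoc3 to Mrpl4 (0.94) and Mospd3 (0.92). Apob was nearest to Ddx3y and Arhgap5 (0.96 each). Values were lower for Apoa4 (Fabp2 0.83, Cntnap1 0.82), Apoc2 (Ifitm2 0.84, Smim8 0.83), Apom (Polr1d 0.82, Pygo2 0.76), Apoa5 (Oplah 0.80, Nsrp1 0.74) and Apoa1 (Zc3h10 0.69, Agpat1 0.66). Between members, the highest r of this kind was 0.95 for Apoc1 with Apoa2, which lie on different chromosomes. It was 0.93 for Apoe with Apoc1, 0.92 for Apoe with Apoa2 and 0.85 for Apoa4 with Apoc2. Apoc3 was at 0.79 with Apoc1, 0.76 with Apoa2 and 0.75 with Apoe.

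Other genes of lipoprotein biology moved in both directions in C26 against CT, by limma on the deposited scale, where 66.3% of all genes were called (33.3% higher and 32.9% lower, median 0.01). Counts of lists this short are read as descriptions beside that share. Of 12 tested other apolipoprotein genes, 5 rose and 7 fell (median log2 fold change -0.49), among them Apol10b (5.32), Apon (1.81), Clu, the clusterin of HDL (1.35), and Apoo, a mitochondrial protein (-0.84). Of 4 genes of Apob mRNA editing, 2 rose and 2 fell: the editing cofactors A1cf (-1.17) and Rbm47 (-0.89) fell, and the deaminase Apobec1 (0.63) and Syncrip (0.29) rose, with Syncrip at -0.058 with scaling to total reads. Of 16 genes of VLDL assembly, 4 rose and 11 fell (median -0.47), including Dgat2, which makes triglyceride (-1.35), Sar1b (-0.83) and Mia2 (-0.68) of the secretory vesicle, and Tm6sf2, which loads lipid onto VLDL (1.46). Of 13 HDL genes, 9 rose and 4 fell (median 0.67). Saa2 (8.98) and Saa1 (8.51), acute phase proteins that ride on HDL, have near-identical sequences and are uncertain as single genes. Lipc, hepatic lipase, was at -4.41 and Pon1, the HDL-borne paraoxonase, at -1.65.

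Of 7 genes that control lipolysis, 0 rose and 5 fell by limma (median -0.65, with 5 at an unadjusted p under 0.05), against 33.3% and 32.9% of all genes. With scaling to total reads 0 of the 7 rose and 7 fell. On that scale 2337 of all 14040 genes rose and 8196 fell, so a fall was the more common call. Counts with that scaling in this paragraph are read beside those 2 numbers. Among the 7 on the deposited scale were Angptl8, an inhibitor of lipase activity (-0.93), Gpihbp1, which anchors lipoprotein lipase (-0.73) and the lysosomal lipase Lipa (-0.63). Of 11 receptor and uptake genes, 5 rose and 4 fell (median 0.22), and with scaling to total reads 4 rose and 5 fell. Lrp1 (1.46), Lsr (1.36) and Sdc1 (1.24), which take up remnants, rose, and Vldlr fell (-2.52). Of 28 transcription factors known to act on apolipoprotein genes, 6 rose and 10 fell (median -0.05), with Srebf1 (-2.59), Ppara (-1.69), Mlxipl (-1.12) and Foxa1 (-1.004) lowest in p. The split was 3 and 19 with scaling to total reads. It was 8 and 8 after quantile normalization, where 4674 of all genes rose and 4678 fell. The split of the editing genes was 1 and 2 with scaling to total reads.

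Among the listed genes, Srebf2 and Pon1 were higher in C26-CHO than in C26 by limma, where 0.556% of all genes were called higher. Srebf2, the transcription factor of cholesterol synthesis, had means of 1479 ± 173 in C26-CHO and 1126 ± 114 in C26 (SD, n = 8 each), a log2 fold change of 0.39 (adjusted p = 0.0129). Pon1 had means of 5013 ± 1262 and 3329 ± 550.2, a log2 fold change of 0.57 (adjusted p = 0.0208). Without C26-CHO 1 the log2 fold changes were 0.37 for Srebf2 and 0.49 for Pon1, and both were still called. Neither was called when the fit held C26 and C26-CHO alone, with adjusted p of 0.0575 for Srebf2 and 0.0949 for Pon1.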

How the data were processed

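Liver RNA of 24 mice was compared between CT, C26 and C26-CHO, grouped by the sample titles. Per the submitters' processing notes, the tools were bcl2fastq 2.17, FastQC, Trimmomatic 0.38, STAR 2.6.1d and DESeq2 1.22.2, with genome build GRCm38. How reads were counted, on which annotation and whether by strand is not given in the sources used here. The authors deposited a normalized signal per gene, which its values show to be a read count divided by a factor of the library. Every value (100%, within 0.001 of a read) was a whole multiple of the value of 1 read, so whole reads were recovered.

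Genes whose mean value reached 10 were tested with limma 3.58.1 (R 4.3.3, trend) on log2 of the value plus 1, so a fold change is on the log2(value + 1) scale. All 24 libraries were in a single fit, with Benjamini-Hochberg adjustment over 14040 genes and calls under 0.05. edgeR 4.0.16 (quasi-likelihood) on recovered reads, with TMM factors, called 9301 genes in C26 vs CT, 117 in C26-CHO vs C26 and 8807 in C26-CHO vs CT. Ratios and correlations used exact two-sided permutation tests (Python 3.11.15, SciPy 1.17.1). The fits and permutation tests were tested on simulated data. Limma and edgeR p-values weigh a group difference against the spread between these mice, and exact permutation p-values come from reassigning or re-pairing the mice.

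The text names the 10 members, up to 4 genes of each list with the smallest p in C26 vs CT, listed genes called in C26-CHO vs C26 and the 2 genes outside the 10 most like each member. A few of these are not reported here. Apoc4, Alb, Ttr, Cps1, Fgb, Tat, Hnf4a, Asgr1, Serpina1c, Krt19, Spp1, Sox9, Muc1, Krt7, Epcam, Cldn7, Cftr, Dcn, Reln and Cdx2 were named after their values were seen. The members and lists were chosen with earlier results of these data known. Coordinates are from GENCODE M21. Alternatives varied the pseudocount, filter, scaling, tool, fit, replicate block and each mouse left out.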

Additional observations from a re-analysis of the deposited data

Results flagged for a closer look

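The log2 ratio of Apoc2 to Apoe in C26-CHO 1 was -6.75, and the nearest other C26-CHO liver was at -5.77. That gap was 0.594 of the range of the 8 livers, above the critical value of Dixon's test for 8 values. It was the only such value among 45 sets of 8 livers tested (the 10 genes and 5 ratios in the 3 groups), and chance alone gives about 1 in 20. The same liver had the lowest Apoc2 and the highest Apoe value of its group.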

How the results depend on the processing

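Depth of at least 19.91 M reads per library leaves all 10 members far above counting limits, so the spread between mice sets the precision. Counts of members called lower were within 1.5 times of the main count under all settings. The count called higher in C26 vs CT (2) was 1 with scaling to total reads and 2 to 3 with single mice left out. In C26-CHO vs CT the count higher (4) was 1 with scaling to total reads, 2 with the compared groups alone and 2 to 5 with single mice left out (2 without CT 1, C26-CHO 5 or C26-CHO 8). All genes called in C26-CHO vs C26 (99) fell to 10 with the compared groups alone and ranged from 23 (without C26-CHO 7) to 273 (without C26-CHO 3). Some results that were called in the main setting or under the alternative reversed direction. Apob did so in C26 vs CT after quantile normalization (-0.39), and in C26-CHO vs CT after quantile normalization (-0.33) and with scaling to total reads (-0.041). Apom did so in C26 vs CT with scaling to total reads (-0.023), as did the r of Apoa4 with Apoc2 in CT without 2 mice (-0.031). After quantile normalization so did the ratios Apoc3 to Apoa1 in C26 vs CT (0.19) and C26-CHO vs CT (0.093) and Apoc1 to Apoe in C26-CHO vs CT (0.90). Sign changes of results called in neither setting, such as Apoa5 in C26-CHO vs CT with scaling to total reads (-0.0058), are not listed. The cause of the reversals was not tested.

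The main fit did not pair mice by replicate number. Over 24 same-numbered pairs r of deviations ran from -0.20 to 0.25, 9 were over 0.1, and 5 of 24 libraries correlated best with their own number. These values cannot decide whether the numbers mark pairs or a batch. With a replicate block 9643 genes were called in C26 vs CT (9305 in the main fit), 97 in C26-CHO vs C26 (99) and 9079 in C26-CHO vs CT (8739). With a replicate block 4 members were called higher in C26 vs CT (Apoa4, adjusted p = 0.0409, and Apob, 0.0327, in addition), and Apoa5 in C26-CHO vs CT (0.0410).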
